A study of Mus musculus with 6 samples.

Results

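The T-cell receptor beta locus on mouse chromosome 6 is described here through every row of the table whose GENCODE M21 symbol starts with Trbv, Trbd, Trbj or Trbc. The annotation holds 53 such segments, and 46 of them were listed among the 21135 genes of the table: 28 of 35 V segments, both D segments, all 14 J segments and both C genes. The 7 that were not listed (Trbv7, Trbv8, Trbv9, Trbv11, Trbv18, Trbv27 and Trbv28) are annotated as pseudogenes. RNA was sequenced from DN3 thymocytes of C57BL/6 mice. The mutant group (3 libraries) was homozygous for mutations of GATA site 1 and GATA site 2 of NMe, a distal enhancer of Myc on another chromosome, and the wild type group (3 libraries) carried wild type NMe. The labels do not say whether libraries came from separate animals, so each p measures the spread between libraries, which may be technical.

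DN3 thymocytes carry neither CD4 nor CD8 and are at the stage at which the beta gene is assembled. The RAG recombinase first joins a D to a J segment and then a V segment to the DJ unit, splicing adds a C gene, and the finished chain pairs with the pre-T-alpha chain and CD3 to form the pre-T-cell receptor. Segments are also transcribed before they are joined. A read on a segment can therefore come from an unrearranged, a partly rearranged or a complete gene, and these transcripts are not told apart here. Values are normalised reads, that is reads divided by 1 size factor per library. Changes are mutant minus wild type on the log2(normalised reads + 1) scale, which understates the change of low genes, and are given ± standard error. Adjusted p is from limma over 17815 genes with a threshold of 0.05.

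Recovered reads came to 38591038 to 48329750 per mutant library and 42383923 to 51306934 per wild type library. Of the DN3 genes Il2ra, Ptcra, Cd3e, Rag1, Rag2, Notch1 and Dtx1, all 7 were listed, and 4 rose and 1 fell. Over all tested genes 7.94% rose and 10.9% fell, which holds beside each marker count here. Genes of gamma-delta T cells (Trdc, Sox13, Zbtb16, Tcrg-C1) summed to 52612 to 87289.8 normalised reads in mutant and 36445 to 43849.6 in wild type libraries, with 3 of 3 tested members higher. Genes of earlier double-negative stages (Kit, Cd44, Bcl11a, Spi1, Lyl1) summed to 2316 to 3280.4 normalised reads in mutant and 3725 to 4526 in wild type libraries, with 2 of 5 lower. The B-cell genes Ms4a1 and Pax5 were not listed. Erythroid genes (Hba-a1, Hbb-bs) summed to 0 to 20.8 normalised reads in mutant and 2.67 to 6253 in wild type libraries, the highest being wild type replicate 2. No tested gene of the myeloid, NK, erythroid or stroma lists was called. In bulk RNA a changed number of cells of a type and a changed RNA level per cell cannot be told apart, and the part of these shifts in the results on the beta locus was not tested.

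Most V segments were higher in the mutant, both C genes were higher by a smaller amount, and neither D segment and only 1 of 14 J segments passed the test. Of the 46 listed segments 44 had a mean of at least 10 and were tested. Of these 24 rose and 0 fell, where 7.94% of all tested genes rose and 10.9% fell. No segment was lower at an unadjusted p under 0.05 in limma, and edgeR and DESeq2 also called 0 lower. For 30 of the 44 every mutant library was above every wild type library, against 18.0% of all tested genes, and the reverse held for 0 (20.3% of all tested genes). The median change was 0.61 over the tested segments and 0.03 over all tested genes. Without wild type replicate 2 the number that rose was 14, and leaving out each other library in turn gave 16 to 20. Calls over all tested genes dropped as well, from 3352 to 1905 without wild type replicate 2. Without each other library they were 2237 to 2788.

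**Figure D1:**
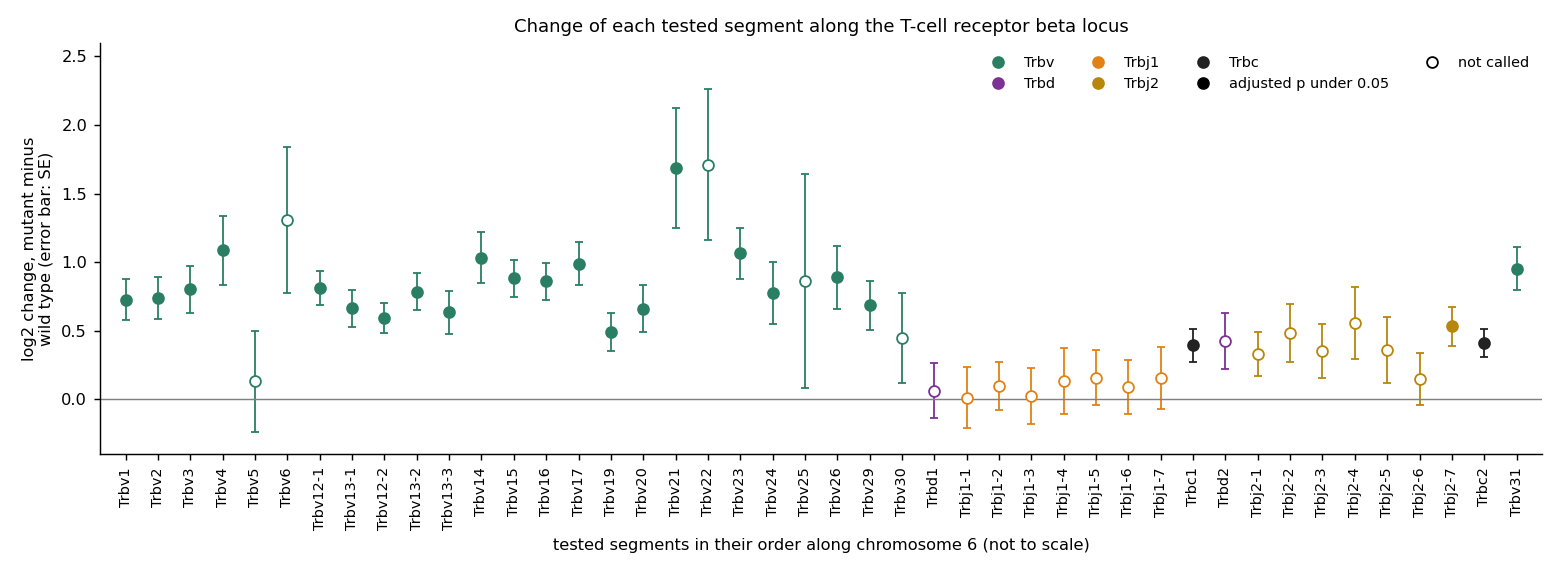
The log2 change (mutant minus wild type, vertical axis, with its standard error) of the 44 tested segments in their order along chromosome 6, coloured by class, with filled points for an adjusted p under 0.05. Filled points are mostly V segments (0.49 to 1.69), Trbd1 and the 7 Trbj1 segments lie between 0.01 and 0.16, and Trbc1 and Trbc2 lie at 0.39 and 0.41.

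The reads of the 28 listed V segments together came to 28632, 26387 and 27025 normalised reads in mutant libraries and 15975, 15687 and 16736 in wild type libraries. Every mutant library was above every wild type library, and the means differed 1.70-fold. The 7 Trbj1 segments together had 8733, 13367 and 7632 normalised reads in mutant libraries and 9073, 10039 and 8261 in wild type libraries, a 1.09-fold ratio of means. Here the genotypes overlapped: mutant replicate 2 was above, mutant replicate 3 below and mutant replicate 1 within the wild type range. The 7 Trbj2 segments together had 3813, 3504 and 2879 normalised reads in mutant libraries and 2600.1, 2842 and 2397 in wild type libraries, a 1.30-fold ratio with no overlap. All segments of the locus took 0.430%, 0.391% and 0.356% of the normalised reads in mutant libraries and 0.281%, 0.288% and 0.265% in wild type libraries.

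**Figure D2:**
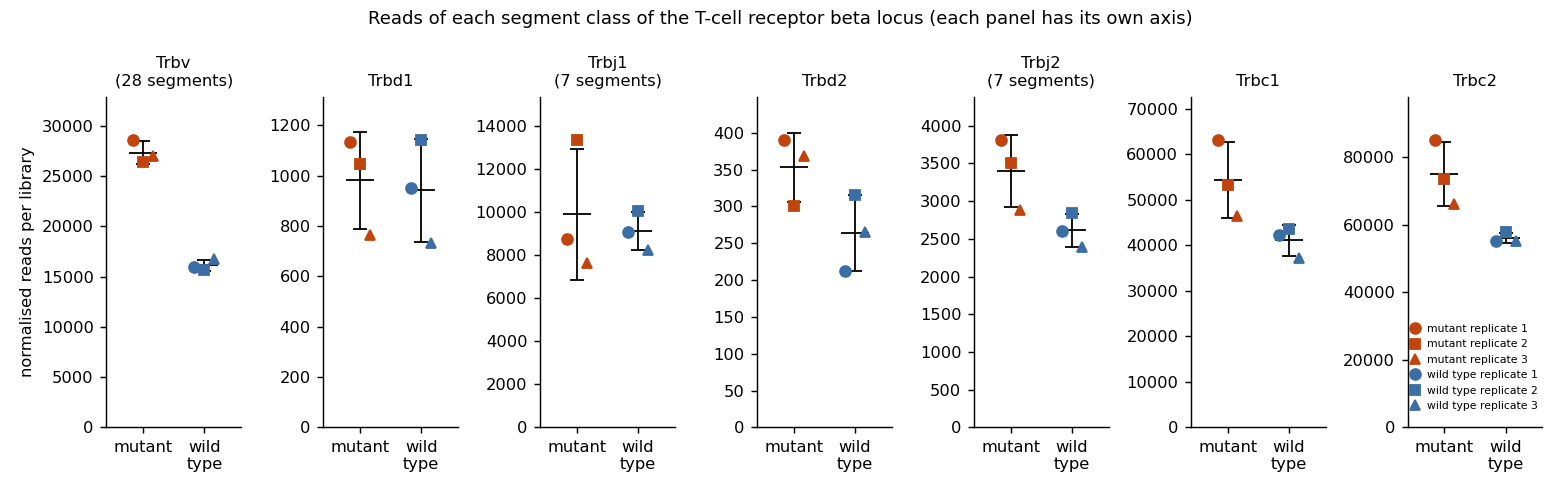
Normalised reads per library (vertical axes, each panel with its own scale from 0) summed by class of segment, with points for libraries, the mutant left of the wild type, and mean and SD (n = 3 each). The V sums lie between 26387 and 28632 in the mutant and between 15687 and 16736 in the wild type, while the points of Trbd1 and Trbj1 overlap.

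V segments carry the leader and most of the variable domain, each has its own promoter, and they end just after the conserved second cysteine, where D and J are joined. The last 30 bases are shown for the 10 V segments with the highest mean and for Trbv31 (RNA sense, 5′ to 3′, GENCODE M21 transcripts on GRCm38), because they are the V side of the joint in a rearranged transcript. Capitals mark the letters TGTGNNAGN, which hold a cysteine codon.
Trbv1: cagaaccttgtactgcacctgcagtgcaga
Trbv2: ggccacatacttcTGTGCCAGCagccaaga
Trbv3: gtgtacttcTGTGCCAGCagcttagccaca
Trbv12-1: tctgctatgtacttcTGTGCCAGCtctctc
Trbv13-1: catctttgtacttcTGTGCCAGCagtgatg
Trbv12-2: tctgccgtgtacttcTGTGCCAGCtctctc
Trbv13-2: catcagtgtacttcTGTGCCAGCggtgatg
Trbv16: agcggtgtatcttTGTGCAAGCagcttaga
Trbv17: tgccatgtacctcTGTGCTAGCagtagaga
Trbv19: tggccgtttttctcTGTGCCAGCagtatag
Trbv31: ctctggcttctacctctgtgcctggagtct
These letters, chosen after the ends had been read, were in the last 30 bases of 17 of the 22 V segments annotated as genes, and on either strand in 2.00% of the windows of 30 bases of all V transcripts. Trbv1 and Trbv31 do not hold them in this window.

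Of 26 tested V segments 21 rose and 0 fell, where 7.94% of all tested genes rose and 10.9% fell. The median change of the 26 was 0.81. The 21 were 20 of 22 segments annotated as genes and 1 of 4 tested pseudogenes. All 19 V segments with a mean of at least 100 normalised reads, a split set after the values were seen, rose, by 0.49 to 1.06 on the log2 scale, and 2 of the 7 tested below that level did. DESeq2 called 21 V segments and edgeR 22, and 13 of the 21 were called whichever 1 library was left out.

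Trbv13-2 (chr6:41121396-41121832, plus strand) had the most reads of any V segment, with 8618, 6915 and 7066 normalised reads in mutant libraries and 4780.3, 4735 and 3643 in wild type libraries. The lowest mutant library was above the highest wild type one, and the change was 0.78 ± 0.13 (limma adjusted p = 0.00353). Per length of exon it averaged 22155 normalised reads per kilobase in the mutant and 12901 in the wild type, and Trbv12-2 averaged 6942 normalised reads per kilobase in the mutant and 4605 in the wild type. Trbv12-2 had 2757, 2739.8 and 2522 normalised reads in mutant libraries and 1913, 1781 and 1625 in wild type libraries (0.59 ± 0.11, limma adjusted p = 0.00541). Their neighbours in the same repeated stretch rose too. Trbv12-1 had 1644, 1636 and 1604 normalised reads in mutant libraries and 951, 822 and 1019.6 in wild type libraries (0.81 ± 0.12, limma adjusted p = 0.00203). Trbv13-1 had 1417, 1379.9 and 1406 normalised reads in mutant libraries and 809, 824 and 1034 in wild type libraries (0.66 ± 0.13, limma adjusted p = 0.00767). The mutant libraries of these 2 lay within a narrow range, well above the wild type ones. Trbv13-3 rose by 0.63 ± 0.16 on the log2 scale (limma adjusted p = 0.0205), a call lost without mutant replicate 3 or wild type replicate 1 (up to 0.0695). The transcripts of Trbv13-2 and Trbv13-3 were identical at 90.6% of aligned bases, those of Trbv13-1 and Trbv13-2 at 88.7% and those of Trbv12-1 and Trbv12-2 at 88.3%, so the split of reads among them is uncertain.

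Trbv14 to Trbv17, the next segments toward the D segments, all rose and were called whichever library was left out. Trbv16 had 1853, 1823 and 1944 normalised reads in mutant libraries and 901, 1007 and 1206 in wild type libraries (0.86 ± 0.13, limma adjusted p = 0.0021). Trbv17 had 1347, 1022 and 1209 normalised reads in mutant libraries and 537, 569 and 695 in wild type libraries (0.99 ± 0.16, limma adjusted p = 0.0024). In both, the lowest mutant library was well above the highest wild type one. Trbv15 had 1247, 1068 and 1067 normalised reads in mutant libraries and 572, 599.7 and 661 in wild type libraries (0.88 ± 0.14, limma adjusted p = 0.00202), and Trbv14 averaged 555 ± 35.8 normalised reads in the mutant and 274 ± 59.4 in the wild type (SD, n = 3 each), a change of 1.03 ± 0.19. Trbv19 had 1220.0, 1247 and 1181 normalised reads in mutant libraries and 793, 799 and 1024 in wild type libraries (0.49 ± 0.14, limma adjusted p = 0.0347). That call was lost when any library other than wild type replicate 3 was left out, with an adjusted p up to 0.127.

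Further along, Trbv20 (0.66 ± 0.17), Trbv23 (1.06 ± 0.19), Trbv26 (0.89 ± 0.23) and Trbv29 (0.69 ± 0.18) rose. Of these Trbv23, with 283, 307 and 323 normalised reads in mutant libraries and 147, 134 and 154 in wild type libraries, was called whichever library was left out. Trbv20 was lost without mutant replicate 3 or wild type replicate 1 or 2 (limma adjusted p up to 0.0975), Trbv26 without any library other than wild type replicate 3 (up to 0.0885), and Trbv29 without mutant replicate 1 or 2 or wild type replicate 1 or 2 (up to 0.0846). The pseudogene Trbv24 had 314, 394 and 292 normalised reads in mutant libraries and 250.3, 159 and 179.7 in wild type libraries (0.78 ± 0.22, limma adjusted p = 0.0366). Its genotypes did not overlap, and it missed the threshold without mutant replicate 1 or 2 or wild type replicate 2 or 3 (up to 0.129).

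The V segments at the ends of the array also rose. Trbv1 (chr6:40891229-40891885, plus strand), set far upstream of the other V segments, had 1263, 1247 and 1397 normalised reads in mutant libraries and 678, 752 and 951 in wild type libraries (0.73 ± 0.15, limma adjusted p = 0.00881). Trbv2 had 992, 1249 and 1080.1 normalised reads in mutant libraries and 575, 647 and 769 in wild type libraries (0.74 ± 0.15, limma adjusted p = 0.0092). Trbv31 (chr6:41557691-41558452, minus strand), which lies beyond Trbc2 in the opposite orientation and joins by inversion, had 1032, 806 and 923 normalised reads in mutant libraries and 460.2, 426 and 538 in wild type libraries (0.95 ± 0.16, limma adjusted p = 0.00277). None of these 3 overlapped between genotypes, and each was called whichever library was left out. The same held for Trbv3, with 1578, 1770.1 and 1922 normalised reads in mutant libraries and 1049.8, 783 and 1230.5 in wild type libraries (0.80 ± 0.17, limma adjusted p = 0.00993).

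Across the 25 tested V segments on the plus strand, Spearman's rho between position and change was 0.085 (0.059 without Trbv1, n = 24), and between mean level and change it was -0.378. Both are descriptions, since the segments share libraries and size factors and some share reads. By stretches set after the values were seen, Trbv1 rose, 3 of 4 from Trbv2 to Trbv5 rose, 9 of 10 tested from Trbv6 to Trbv17 rose, and 7 of 10 from Trbv19 to Trbv30 rose. Their median changes were 0.73, 0.77, 0.84 and 0.82 in that order. Over all tested genes 7.94% rose. The segments called whichever library was left out numbered 1, 2, 8 and 1 in the same order, so the calls from Trbv19 to Trbv30 were less stable.

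Segments with few reads varied more. Trbv21 had 53.8, 29.9 and 60.7 normalised reads in mutant libraries and 15.9, 10.5 and 15.1 in wild type libraries (1.69 ± 0.44, limma adjusted p = 0.0239), and its call was lost without mutant replicate 1 or 3 or wild type replicate 2 (up to 0.0819). The pseudogene Trbv22 had 17, 26 and 16 recovered reads in mutant libraries and 5, 4 and 8 in wild type libraries and did not pass (1.71 ± 0.55, limma adjusted p = 0.054), although edgeR called it (adjusted p = 0.0421). The values of Trbv6 (1.31 ± 0.53), Trbv25 (0.86 ± 0.78) and Trbv30 (0.45 ± 0.33) did not pass either. Trbv25 had 38, 45 and 4 recovered reads in mutant libraries and 9, 9 and 16 in wild type libraries, so that mutant replicate 3 was the lowest of all libraries and the other mutant libraries the highest. Without mutant replicate 3 Trbv25 was called (change 1.84, limma adjusted p = 0.0405). Trbv10, with 18, 18 and 0 recovered reads in mutant libraries and 3, 0 and 14 in wild type libraries, and Trbv12-3, with 8, 8 and 14 recovered reads in mutant libraries and 0, 10 and 3 in wild type libraries, were too low to be tested. The segments of this paragraph that were not called are named after their values were seen.

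Trbv4 and Trbv5 overlap exons of the long noncoding RNA gene 5830405F06Rik on the same strand, by 295 and 292 bases. Trbv4 had 129.8, 124 and 135 normalised reads in mutant libraries and 72.1, 54.4 and 56.1 in wild type libraries (1.09 ± 0.25, limma adjusted p = 0.0148, and 0.0571 without wild type replicate 2). Trbv5 had 36.9, 35.3 and 46.3 normalised reads in mutant libraries and 36.1, 25.8 and 48.9 in wild type libraries (0.13 ± 0.37, 95% confidence interval -0.69 to 0.96). Trbv4 was apart between genotypes and Trbv5 overlapped. 5830405F06Rik itself, named after its values were seen, had 616, 522 and 393 normalised reads in mutant libraries and 156, 146 and 191 in wild type libraries (1.61 ± 0.21, limma adjusted p = 0.000982). How reads in shared exons were assigned is not given in the sources used here, so the values of these 3 genes are uncertain.

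The make-up of the V reads is given as shares within each library, which do not depend on the scaling between libraries and were not tested. Trbv13-2 took 27.5% ± 2.27 of the V reads in the mutant and 27.3% ± 4.79 in the wild type (SD, n = 3 each). Trbv12-2 took 9.78% ± 0.542 of the V reads in the mutant and 11.01% ± 1.17 in the wild type, and Trbv16 took 6.86% ± 0.363 of the V reads in the mutant and 6.42% ± 0.781 in the wild type. The genotypes overlapped for all 3, and of the 10 V segments with the highest mean they were apart for Trbv19 alone, which took 4.45% ± 0.243 of the V reads in the mutant and 5.39% ± 0.632 in the wild type. Trbv23 took 1.12% ± 0.112 of the V reads in the mutant and 0.898% ± 0.0398 in the wild type, with every mutant library above every wild type one. The rarer Trbv4, Trbv21 and Trbv22 also took larger shares in every mutant library. The shares of all other listed V segments overlapped, and how many would be apart by chance was not tested.

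**Figure D3:**
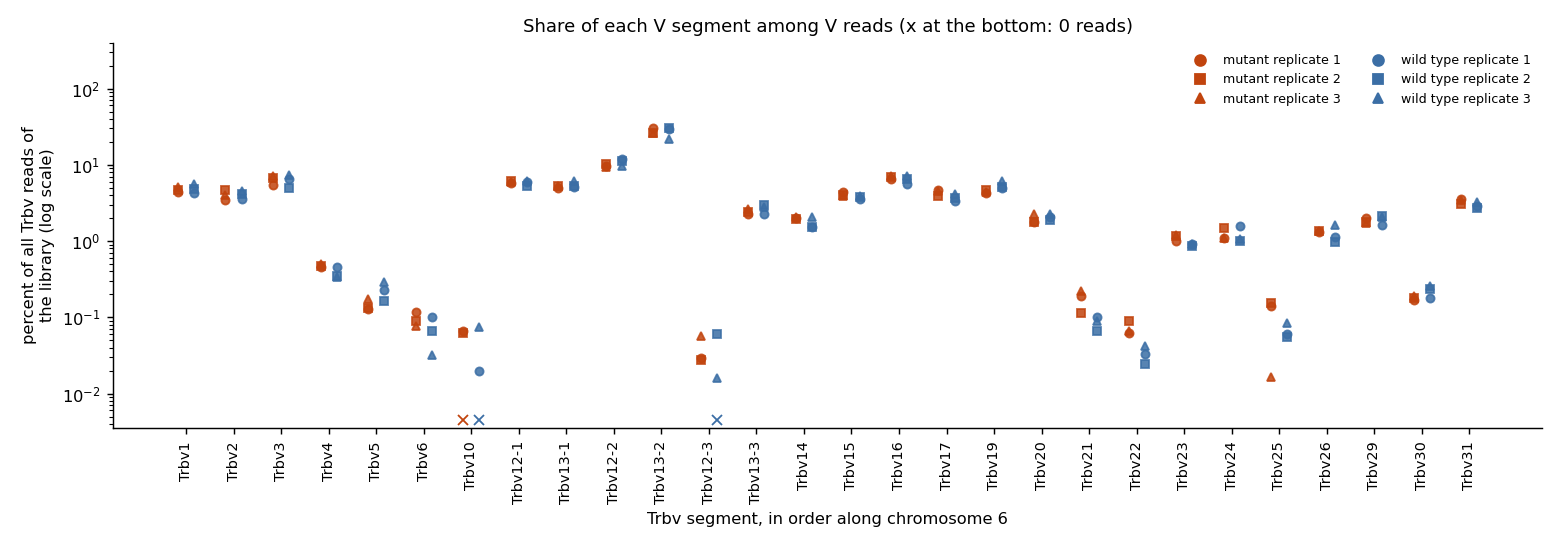
Share of each listed V segment among the V reads of a library (vertical axis, percent on a log scale) in order along chromosome 6, with 1 point per library, mutant left of wild type, and crosses at the bottom for 0 reads. Trbv13-2 leads in all 6 libraries, with mean shares of 27.5% in the mutant and 27.3% in the wild type.

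D segments add a short stretch rich in G between V and J. Trbd1 lies at chr6:41533201-41533212 and Trbd2 at chr6:41542163-41542176, both on the plus strand (GRCm38). They are shown whole, with their longest run of G, of 5 and 7 bases, in capitals, because they differ by little else.
Trbd1: gggacaGGGGGc
Trbd2: gggactGGGGGGGc
Trbd1 had 1133, 1048 and 765 normalised reads in mutant libraries and 951, 1143 and 731 in wild type libraries. The genotypes overlapped and the change was 0.06 ± 0.20 (95% confidence interval -0.38 to 0.51, limma adjusted p = 0.852). Trbd2 had 390.5, 301 and 369 normalised reads in mutant libraries and 212, 315 and 265 in wild type libraries (0.43 ± 0.20, 95% confidence interval -0.02 to 0.88, limma adjusted p = 0.17), with mutant replicate 2 below the highest wild type library. D and J segments are shorter than a sequencing read, so their reads extend into flanking sequence and no level per length is given for them.

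J segments encode the end of the variable domain and are spliced to a C gene. The first cluster of 7 follows Trbd1 and the second of 7 follows Trbd2. They are shown whole so that the clusters can be compared, except that Trbj1-3 is a transcript of 50 of its 54 exon bases. Capitals mark the letters TTNGG followed by 4 bases of any kind and GGN. These letters hold the phenylalanine, glycine and glycine codons of a J region.
Trbj1-1: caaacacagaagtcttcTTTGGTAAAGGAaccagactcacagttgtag
Trbj1-2: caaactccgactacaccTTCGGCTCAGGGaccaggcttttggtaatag
Trbj1-3: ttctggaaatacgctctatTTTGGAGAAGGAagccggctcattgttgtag
Trbj1-4: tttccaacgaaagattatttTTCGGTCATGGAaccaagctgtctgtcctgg
Trbj1-5: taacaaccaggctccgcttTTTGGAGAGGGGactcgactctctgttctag
Trbj1-6: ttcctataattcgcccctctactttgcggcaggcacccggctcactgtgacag
Trbj1-7: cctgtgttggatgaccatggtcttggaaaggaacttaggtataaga
Trbj2-1: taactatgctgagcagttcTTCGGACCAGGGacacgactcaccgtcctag
Trbj2-2: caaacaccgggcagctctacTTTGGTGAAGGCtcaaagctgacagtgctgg
Trbj2-3: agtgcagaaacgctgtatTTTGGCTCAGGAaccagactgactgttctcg
Trbj2-4: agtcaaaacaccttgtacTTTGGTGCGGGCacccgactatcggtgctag
Trbj2-5: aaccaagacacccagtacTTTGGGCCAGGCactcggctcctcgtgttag
Trbj2-6: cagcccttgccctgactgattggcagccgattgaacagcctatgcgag
Trbj2-7: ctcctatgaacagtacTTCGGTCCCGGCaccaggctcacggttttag
The letters were in 11 of 14 J segments on the sense strand and in 0 on the other, and on either strand in 2.26% of the windows of 50 bases of all V transcripts. Trbj1-6, Trbj1-7 and the pseudogene Trbj2-6 do not hold them. All J segments lie on the plus strand.

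None of the 7 Trbj1 segments passed the test, and all of them overlapped between genotypes. Their median change was 0.10, their limma adjusted p ran from 0.622 to 0.975, and 0 had an unadjusted p under 0.05. edgeR and DESeq2 also called 0 of them. Trbj1-1 had 3183, 3830.0 and 2064 normalised reads in mutant libraries and 3115, 3455 and 2279 in wild type libraries (0.01 ± 0.22, 95% confidence interval -0.48 to 0.51). Trbj1-5 had 1212, 2168 and 1285 normalised reads in mutant libraries and 1322, 1411 and 1299.9 in wild type libraries (0.16 ± 0.20, 95% confidence interval -0.29 to 0.60). Each interval includes no change and also rises of the size of that of Trbv19.

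Mutant replicate 2 had the most reads of all 6 libraries for each of the 7 Trbj1 segments, for 3 of 7 Trbj2 segments and for 5 of 28 V segments. Trbj1-2 had 1204, 1627 and 987 normalised reads in mutant libraries and 1095, 1260.5 and 1138 in wild type libraries (0.10 ± 0.18). Trbj1-3 had 1025, 1800.0 and 1026 normalised reads in mutant libraries and 1192, 1261 and 1192 in wild type libraries (0.03 ± 0.20), and Trbj1-4 had 828, 1649.7 and 887 normalised reads in mutant libraries and 916, 1124 and 889 in wild type libraries (0.14 ± 0.24). In these last 2, mutant replicate 2 stood above the wild type range and the other mutant libraries below it. Trbj1-6 had 843, 1431 and 848 normalised reads in mutant libraries and 899, 1012 and 929.8 in wild type libraries (0.09 ± 0.20), and Trbj1-7 had 438, 862 and 533 normalised reads in mutant libraries and 532, 515 and 533 in wild type libraries (0.15 ± 0.23). Without mutant replicate 2 the changes of all 7 were negative, between -0.24 (Trbj1-3) and -0.09 (Trbj1-2), and none was called (limma adjusted p 0.277 to 0.735).

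Of 7 Trbj2 segments 1 rose and 0 fell, with a median change of 0.36, and 4 did not overlap between genotypes. For those 4 every mutant library was above every wild type one, as for 18.0% of all tested genes. Over all tested genes 7.94% rose and 10.9% fell, so the 1 call is not read as a result about the cluster. Trbj2-7, the J segment nearest to Trbc2, had 697, 755 and 637 normalised reads in mutant libraries and 484, 487 and 469.8 in wild type libraries (0.53 ± 0.14, limma adjusted p = 0.0256). The call held only when mutant replicate 3 was the library left out (otherwise up to 0.0952). Trbj2-1 had 1823, 1555 and 1207 normalised reads in mutant libraries and 1199, 1326 and 1080.1 in wild type libraries (0.33 ± 0.16). Trbj2-2 had 301, 274 and 211 normalised reads in mutant libraries and 180.3, 214 and 164 in wild type libraries (0.49 ± 0.21). In both, mutant replicate 3 was below the highest wild type library. Trbj2-3 (0.35 ± 0.20) had 270.2, 329 and 281 normalised reads in mutant libraries and 261, 245 and 187 in wild type libraries. Trbj2-4 (0.56 ± 0.26) had 123, 106 and 102 normalised reads in mutant libraries and 63.6, 91.7 and 70.3 in wild type libraries, and Trbj2-5 (0.36 ± 0.24) had 131, 146 and 104 normalised reads in mutant libraries and 97.6, 96.4 and 98.8 in wild type libraries. These 3 were apart between genotypes and did not pass. The pseudogene Trbj2-6 (0.15 ± 0.19) had 469, 339.5 and 338 normalised reads in mutant libraries and 315, 381 and 327 in wild type libraries, which overlapped.

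**Figure D4:**
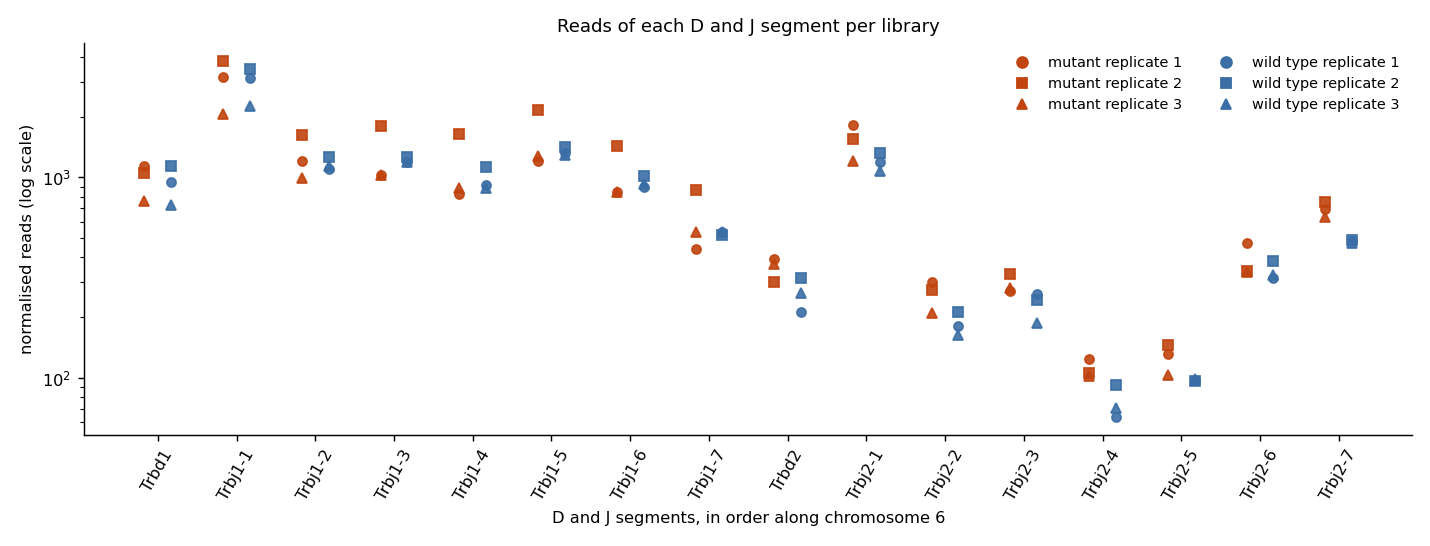
Normalised reads (vertical axis, log scale) of each D and J segment in order along chromosome 6, with 1 point per library, mutant left of wild type. Mutant replicate 2 is the highest point for all 7 Trbj1 segments, and Trbj2-7 is the J segment that passed the test.

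The C genes encode the constant domain, membrane anchor and short tail of the chain. Trbc1 (chr6:41538218-41539881) had 63139, 53116 and 46509 normalised reads in mutant libraries and 42157, 43637 and 37295 in wild type libraries (0.39 ± 0.12, 95% confidence interval 0.13 to 0.66, limma adjusted p = 0.0447). Trbc2 (chr6:41546730-41548352) had 85147, 73574 and 66218 normalised reads in mutant libraries and 55193, 57778 and 55113 in wild type libraries (0.41 ± 0.10, 95% confidence interval 0.18 to 0.64, limma adjusted p = 0.0203). Both were higher in every mutant library, with means 1.32-fold and 1.34-fold those of the wild type. Of the fits with 1 library fewer, Trbc1 was called in the one without mutant replicate 3 alone (adjusted p up to 0.139 in the others), and the call of Trbc2 was lost without mutant replicate 2 or any 1 wild type library (up to 0.0648). Per length of exon Trbc2 averaged 108352 normalised reads per kilobase in the mutant and 80965 in the wild type, and Trbc1 72436 normalised reads per kilobase in the mutant and 54779 in the wild type. Their transcripts were identical at 87.7% of 681 aligned bases, so the split of reads between them is uncertain.

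Ratios within a library set the classes side by side without the scaling between libraries. Those with V reads were chosen after values were seen, and none was tested. V reads per C read came to 0.193, 0.208 and 0.240 in mutant libraries and 0.164, 0.155 and 0.181 in wild type libraries, so that each mutant library was above each wild type one. V reads per Trbj2 read came to 7.51, 7.53 and 9.39 in mutant libraries and 6.14, 5.52 and 6.98 in wild type libraries, again without overlap. V reads per Trbj1 read came to 3.28, 1.97 and 3.54 in mutant libraries and 1.76, 1.56 and 2.03 in wild type libraries, where mutant replicate 2 was within the wild type range. Trbj2 reads per Trbj1 read were 0.437, 0.262 and 0.377 in mutant libraries and 0.287, 0.283 and 0.290 in wild type libraries, with mutant replicate 2 below and the other mutant libraries above the narrow wild type range. Trbc2 reads per Trbc1 read were 1.35, 1.39 and 1.42 in mutant libraries and 1.31, 1.32 and 1.48 in wild type libraries, which overlapped.

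Of 15 genes of V(D)J recombination and end joining 2 rose and 2 fell, with a median change of 0.03. Over all tested genes 7.94% rose and 10.9% fell, so these small counts are not read as a result about the list. Rag1, a subunit of the recombinase, averaged 6835 ± 694 normalised reads in the mutant and 10201 ± 314 in the wild type (SD, n = 3 each, change -0.58 ± 0.10, limma adjusted p = 0.0035). Xrcc5, which encodes the Ku80 subunit that binds broken ends, averaged 2148 ± 67.8 normalised reads in the mutant and 3709 ± 252 in the wild type (change -0.79 ± 0.10). Polm, a polymerase of end joining, rose by 1.52 ± 0.19 and the ligase gene Lig4 by 0.50 ± 0.13 on the log2 scale. Lig4 missed the threshold without mutant replicate 2 or wild type replicate 1 or 2 (limma adjusted p up to 0.101). Rag2 (-0.11 ± 0.14) and Dntt (0.04 ± 0.12), the terminal transferase gene, did not pass and are named for their role.

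Among 9 genes for partners of the beta chain and its proximal signalling 4 rose and 0 fell, with a median change of 0.32. The shares over all tested genes were 7.94% and 10.9%. The CD3 chain genes Cd3d (0.68 ± 0.13), Cd3g (0.53 ± 0.14) and Cd3e (0.41 ± 0.10) and the kinase gene Lck (0.32 ± 0.09) rose. With 1 library fewer, Cd3g and Lck were called without mutant replicate 3 alone (otherwise limma adjusted p up to 0.0743 and 0.122), and Cd3e was lost without mutant replicate 1 or 2 or wild type replicate 2 or 3 (up to 0.0794). Ptcra, the pre-T-alpha chain gene, did not pass (0.32 ± 0.14, limma adjusted p = 0.147). Of 8 genes for factors known to bind promoters or the enhancer of the locus, 1 rose and 0 fell (median 0.09). As 7.94% of all tested genes rose, so small a count is not read as a result about the list. The 1 that rose was Gata3, which averaged 11031 ± 559 normalised reads in the mutant and 7098 ± 606 in the wild type (change 0.64 ± 0.10, limma adjusted p = 0.00208).

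Of 21 genes taken as neighbours of the locus or lying within it, 11 were listed and 8 tested, of which 3 rose and 0 fell (median 0.86). Over all tested genes 7.94% rose and 10.9% fell. Ephb6, an ephrin receptor gene downstream of Trbv31, averaged 5764 ± 194 normalised reads in the mutant and 2737 ± 196 in the wild type (SD, n = 3 each, change 1.08 ± 0.10, limma adjusted p = 0.000163). Zyx (0.67 ± 0.15) and Gstk1 (0.60 ± 0.18), further downstream, rose as well. Gstk1 missed the threshold unless mutant replicate 2 was the library left out (limma adjusted p up to 0.14). Prss2, a trypsinogen gene between the V array and Trbd1, did not pass (1.11 ± 0.59, limma adjusted p = 0.217).

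Besides Prss2 and 5830405F06Rik, 3 other genes that are no segments were listed between Trbv1 and Trbv31, named after their values were seen. 2210010C04Rik, a protein-coding gene between Trbv1 and Trbv2 on the minus strand, had 33.8, 40.7 and 26.5 normalised reads in mutant libraries and 20.1, 4.77 and 2.67 in wild type libraries. The genotypes were apart and it rose (2.16 ± 0.67, limma adjusted p = 0.0482). The call was kept with 1 library fewer in the fit without wild type replicate 1 alone (up to 0.137 in the others), and neither edgeR (adjusted p = 0.0824) nor DESeq2 (0.0515) made it. AC153851.1, whose exons overlap Trbv8 and Trbv10, had 2, 5 and 6 recovered reads in mutant libraries and 12, 9 and 14 in wild type libraries, with every mutant library below every wild type one, and was too low to be tested. The pseudogene Gm2719 had 0, 2 and 6 recovered reads in mutant libraries and 8, 5 and 8 in wild type libraries, which overlapped, and was not tested either.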

How the data were processed

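Libraries were made with the SMART-Seq v4 and Nextera XT kits, which do not mark strand, and sequenced as paired ends, per the labels' protocols. The deposited values are a signal: read counts per gene, each library scaled by the authors with a factor of its own, as the values show. STAR 2.5.3, featureCounts and DESeq2 1.20.0 on mm10 (GRCm38) are named in the submitters' processing notes. Dividing by the step of each library gave whole reads, within 0.1, for 100% of 126810 values. Symbols came from GENCODE M21 for 21100 of 21135 genes. Genes with a mean of at least 10 (17815) were tested on log2(value + 1) with limma 3.58.1 (R 4.3.3), two-sided, with Benjamini-Hochberg adjustment over all of them. The alternatives were edgeR 4.0.16 (quasi-likelihood test) and DESeq2 1.42.0 on recovered reads, other pseudocounts, filters and scaling, library weights, a replicate block and leaving out each library. The fits were tested on simulated data. Antisense and overlapping genes cannot be told apart without strand. Members and gene lists were chosen with earlier results of these data known. Named were all D, J and C segments, V segments that passed, the 10 V segments with the highest mean, Trbv1, Trbv2 and Trbv31, and up to 4 called genes per list. Outside this rule, the V segments that did not pass or were not tested, Rag2, Dntt, Ptcra, Prss2 and the other genes within the locus were named with their values in view. The summed levels of the marker lists of B cells and of double-positive and mature T cells are not reported here.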

Additional observations from a re-analysis of the deposited data

How the results depend on the processing

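Of 44 tested segments 24 rose in the mutant, and 22 to 25 did under other pseudocounts, filters and scaling, edgeR, DESeq2, library weights and the replicate block. Leaving out 1 library gave 14 to 20, while calls over all tested genes went from 3352 to between 1905 and 2788. None fell under any of these settings. With equal library totals the log2 ratio of the V totals was 0.82, against 0.76. With library weights the change of Trbd1 was -0.014. With 1 library left out, the change of Trbd1 ran from -0.11 to 0.23, Trbv5 from -0.10 to 0.35, Trbj1-1 from -0.18 to 0.26, Trbj1-2 from -0.092 to 0.27, Trbj1-3 from -0.24 to 0.16, Trbj1-4 from -0.18 to 0.32, Trbj1-5 from -0.11 to 0.31, Trbj1-6 from -0.16 to 0.22, Trbj1-7 from -0.12 to 0.36 and Trbj2-6 from -0.0059 to 0.23; the cause was not tested. The replicate block called 22 segments, losing Trbv19 and Trbv24. Libraries with the same number did not deviate together (correlations -0.022, -0.066 and -0.01). Those with different numbers gave -0.064 to 0.096. With so few libraries this does not settle whether the numbers pair them. With 3 libraries per genotype the intervals are wide, and for segments under about 100 normalised reads counting error adds to them.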
